A study of Mus musculus with 3 samples.

Results

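WNT signalling genes were examined in RNA of lymphatic endothelial cells that had been sorted from mouse large intestine. The set holds 42 genes, taken by gene symbol from a list of names grouped by role, with no threshold on their values: 19 WNT ligands, 10 Frizzled receptors, 2 co-receptors, 2 genes of ligand secretion and 9 secreted inhibitors. All 42 were among the 24091 genes listed for each library. The series has 1 group of 3 libraries from C57BL/6 mice, called replicates 1, 2 and 3, and no other group to set against it. The labels give no genotype or treatment, and the names of all 3 tables carry the word Water, which no label explains. Cells were collected by flow cytometry on CD31, podoplanin and LYVE1, from digested tissue. The labels do not say whether each library is a different mouse, so differences among the 3 may be technical. Levels are in TPM, a transcript abundance scaled for gene length and library size and meant for comparing genes with each other. Against the other libraries, replicate 1 was still lower for genes of long transcripts, which limits such comparisons there. Values are means ± SD over the 3 libraries (n = 3) unless single libraries are named. A gene counts as expressed where every library had at least 1 TPM. With 1 group there was no test between conditions, and none is given.

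WNT proteins are secreted signals that carry a lipid added by the acyltransferase Porcupine (Porcn) and leave the cell on the carrier Wntless (Wls). They bind Frizzled receptors, and with the co-receptors LRP5 or LRP6 they stabilise beta-catenin, which acts with TCF/LEF factors on target genes. Secreted inhibitors either bind the ligand (SFRP proteins and WIF1) or block LRP5 and LRP6 (DKK1, DKK2 and DKK4). In the large intestine this pathway keeps stem cells of the crypt dividing, and stromal cells around the crypt are a known source of ligands.

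The libraries carried abundant RNA of other cells, which bears on every level below. The 12 epithelial markers summed to 16805, 20620 and 21510 TPM in replicates 1, 2 and 3, with Car1, Krt8 and Lgals4 highest, and none of the 12 was near 0. The 11 lymphatic markers, led by Lyve1, Mmrn1 and Reln, summed to 1692, 1771 and 984 TPM, so the labelled cell type was present and its markers were lowest in replicate 3. The 10 fibroblast markers, led by Dcn, Col3a1 and Dpt, summed to 194, 131 and 490 TPM. The 9 smooth muscle and pericyte markers, led by Tagln, Acta2 and Actg2, summed to 232, 186 and 417 TPM. The 8 macrophage markers, led by Lyz2, C1qa and C1qc, summed to 248, 173 and 550.0 TPM. The 10 blood endothelial markers, led by Aqp1, Car4 and Gpihbp1, summed to 853, 784 and 917 TPM. Without Car4, which colonocytes also express, the other 9 summed to 710, 635 and 628 TPM. Of the 10 markers, 4 were lowest in replicate 3, while 6 (Car4 among them) were highest there. Replicate 3 thus stood apart with the highest sums of fibroblast, muscle and macrophage markers. Its leukocyte and mesothelial marker sums were the highest of the 3 libraries as well. Its epithelial sum was also the highest, but close to that of replicate 2. The median epithelial marker was highest in replicate 2 (722, 942 and 852 TPM in replicates 1, 2 and 3). Replicate 1 stood apart in another way, with lower values for genes of long transcripts, as given with the receptors below. Leukocyte and lymphocyte markers (Cd79a, Ptprc and Cd79b highest) summed to 8.74, 10.3 and 30.7 TPM. Mesothelial markers (Msln, Upk3b and Lrrn4) summed to at most 2.17 TPM. A level in such a library does not assign a gene to a cell, and fewer cells of a type cannot be told apart from less RNA per cell.

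Transcripts of the WNT receiving side were more abundant than those of the ligands. The 10 Frizzled genes summed to 48.4, 72.6 and 71.3 TPM in replicates 1, 2 and 3, and Lrp5 and Lrp6 together to 38.1, 58.3 and 54.5 TPM. The 19 ligand genes summed to 8.48, 8.15 and 13.3 TPM, and the 9 inhibitor genes to 14.9, 10.3 and 21.8 TPM. Wls alone exceeded all ligands together 7.31-fold, 9.68-fold and 5.77-fold. The summed Frizzled level was 5.71-fold, 8.91-fold and 5.37-fold the summed ligand level, higher in 3 of 3 libraries.

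**Figure D1:**
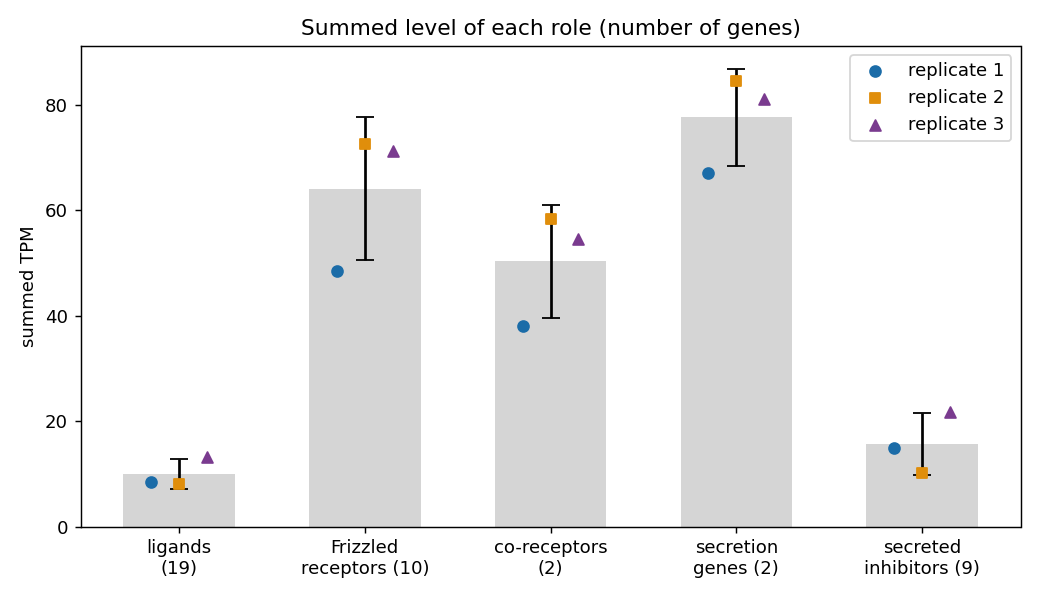
Summed TPM (y axis) of the genes of each role (x axis, number of genes in brackets). Bars are means and error bars SDs over the 3 libraries, and points are single libraries. The ligand sums lie between 8.15 and 13.3 TPM, below every Frizzled, co-receptor and secretion gene sum.

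Of the 42 genes, 15 were expressed, or 35.7%, against 53.4% of all 24091 genes. A further 18 stayed below a TPM of 1 in all 3 libraries, against 41% of all genes, and 9 lay between. The shares differed by role. Expressed were 8 of 10 Frizzled genes, both co-receptors and both secretion genes, but 2 of 9 inhibitors and 1 of 19 ligands. The median gene of the set stood at 0.892 ± 0.255 TPM, against 2.41 ± 0.376 TPM for all genes. The median ligand stood at 0.258 ± 0.186 TPM and the median Frizzled gene at 4.90 ± 1.17 TPM. A mean of 10 TPM or more was reached by 5 of the 42 genes (Wls, Lrp5, Fzd5, Lrp6 and Fzd6), against 35% of all genes.

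**Figure D2:**
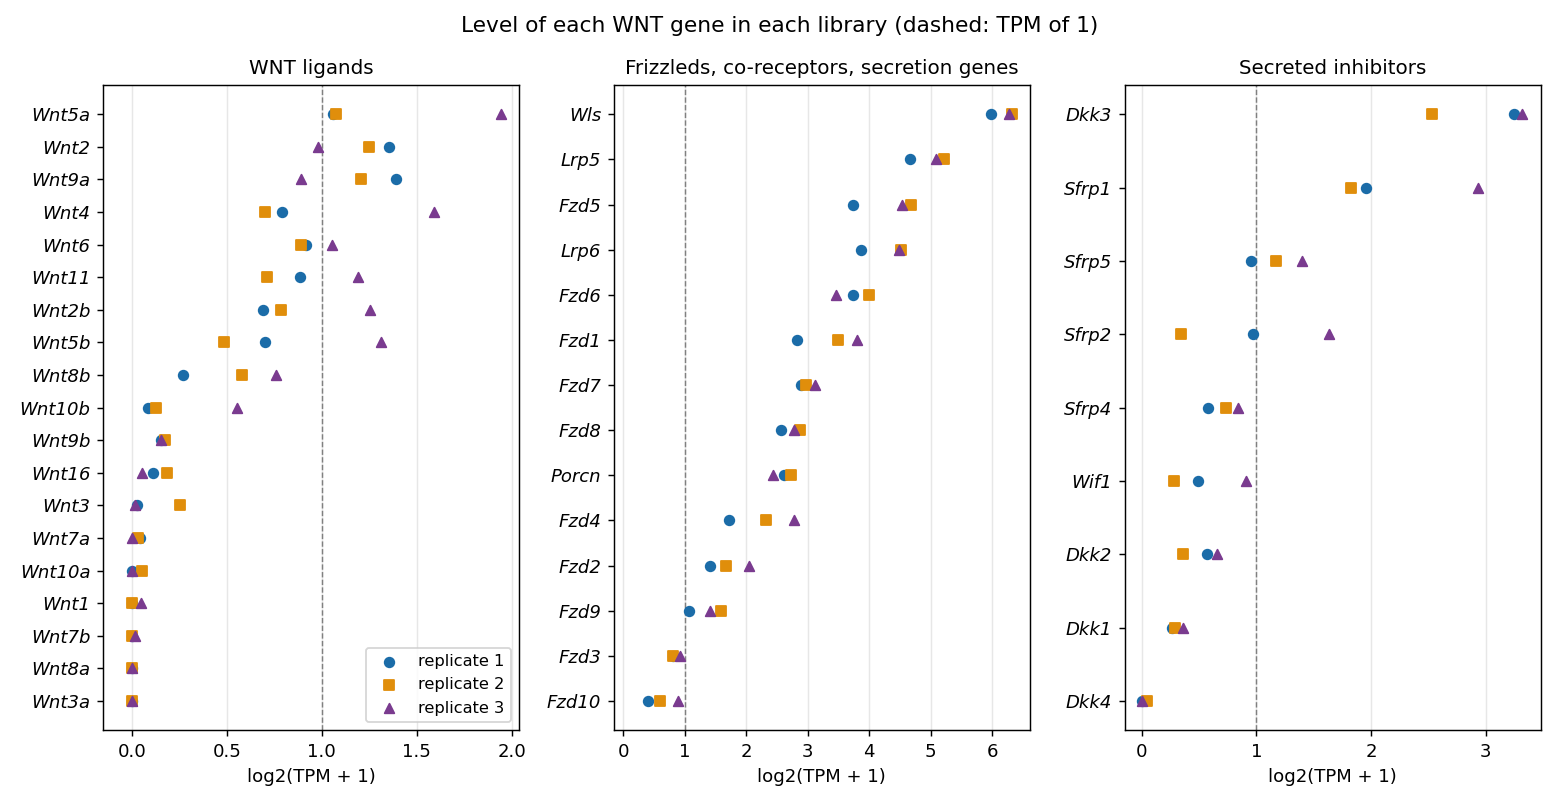
Level of each of the 42 genes as log2(TPM + 1) (x axis) in the 3 libraries, with genes ordered by mean TPM (y axis) within 3 panels by role. The dashed line marks a TPM of 1, which Wnt5a alone of the ligands passes in all 3 libraries, and the x axes differ in range.

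Regulatory sequence is shown here for 4 ligand genes whose levels split the libraries in opposite ways, as described below. Wnt2 and Wnt9a were lowest in replicate 3, whereas Wnt4 and Wnt5b were highest there. RefSeq (GRCm38.p6, which is mm10) gave 30 promoter windows for 27 of the 42 genes. The sequences are DNA before a listed start, 5′ to 3′ on the gene's strand. Each was cut where an annotated exon of the gene, or the annotated gene itself, began before that start. Those of Wnt2, Wnt9a and Wnt4 thus end 140, 81 and 146 bases short of the start, while that of Wnt5b reaches it. Capitals mark the GC box GGGCGG (reverse CCGCCC) and, in Wnt5b, the TCF/LEF core CTTTGAT (reverse ATCAAAG). In Wnt4, 2 boxes overlap as CCGCCCGCCC. The Wnt2 stretch is chr6:18030586-18030695 (minus strand), that of Wnt9a chr11:59306680-59306848 (plus strand) and that of Wnt4 chr4:137277385-137277488 (plus strand). The listed starts of Wnt2 and Wnt9a lie inside the wider annotated gene. Wnt5b has 3 listed starts, and the one shown, chr6:119449387-119449636 (minus strand), was picked for its TCF/LEF match. This start also lies inside the wider annotated gene, which reaches 119544824. The windows of the other Wnt5b starts held no TCF/LEF match.
Wnt2: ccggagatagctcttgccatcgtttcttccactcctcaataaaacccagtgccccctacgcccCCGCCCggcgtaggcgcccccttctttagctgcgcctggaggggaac
Wnt9a: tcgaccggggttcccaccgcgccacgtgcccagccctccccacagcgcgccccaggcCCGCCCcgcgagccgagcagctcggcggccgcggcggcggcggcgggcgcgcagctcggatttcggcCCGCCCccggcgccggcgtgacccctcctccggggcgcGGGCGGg
Wnt4: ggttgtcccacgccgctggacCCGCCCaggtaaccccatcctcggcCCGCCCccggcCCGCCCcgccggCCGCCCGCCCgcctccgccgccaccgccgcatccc
Wnt5b: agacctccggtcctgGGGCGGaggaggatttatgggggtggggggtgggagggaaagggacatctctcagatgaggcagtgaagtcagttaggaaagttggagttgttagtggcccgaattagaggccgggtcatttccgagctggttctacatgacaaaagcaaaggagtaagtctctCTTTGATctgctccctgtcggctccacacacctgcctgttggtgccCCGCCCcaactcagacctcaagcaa
GC boxes lay in 22 of the 30 windows of 250 bases before the start (73.3%), against 32.7% of the 32851 windows of all genes. The member windows had a median GC content of 67.4% and 21.5 CpG sites, against 52.4% and 6 for all windows. The Wnt4 window held 8 GC boxes over its 250 bases, that of Wnt9a held 5 and that of Wnt2 held 1. All motifs were searched on both strands. Among the others, CTTTGAT was in 2 windows (Wnt5b and Wnt11), or 6.67%, against 3.21% of all windows. The TATA box TATAAA was in 5 of 30 windows (Dkk1, Dkk2, Fzd1, Wif1 and Wnt11), or 16.7%, against 12.4%. The ETS motif CCGGAAG, a core bound by endothelial ETS factors, was in 1 window (Fzd10), or 3.33%, against 6.91%. These matches describe letters in a window and not binding.

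Among the ligands, Wnt5a (Entrez 22418, mm10 chromosome 14, 28504543 to 28527448), known for signalling without beta-catenin, was the one called expressed. It had 1.08, 1.10 and 2.84 TPM in replicates 1, 2 and 3. Replicate 3 lay well above the other libraries, which were nearly equal. Wnt2 (Entrez 22413, chromosome 6, 17985474 to 18032772), a ligand of the beta-catenin pathway, had 1.56, 1.38 and 0.971 TPM. Wnt9a (Entrez 216795, chromosome 11, 59306849 to 59333552) had 1.62, 1.31 and 0.853 TPM. Both ligands were lowest in replicate 3, where the lymphatic markers were also lowest. Wnt4, another ligand with roles outside the beta-catenin branch, had 0.728, 0.625 and 2.01 TPM. Of these 4 genes, the sole ligands with a mean of 1 TPM or more, 2 were highest in replicate 3 and 2 were lowest there. Wnt2 made up 18.4%, 16.9% and 7.31% of all ligand TPM in replicates 1, 2 and 3, and Wnt5a 12.8%, 13.6% and 21.4%. The leading ligand was therefore Wnt9a in replicate 1, Wnt2 in replicate 2 and Wnt5a in replicate 3. Wnt5a and Wnt11 share 4.58% and 8.80% of their exon bases with Gm2670 and Gm8398 on the opposite strand, so that part of their level is uncertain. The ratio of Wnt5a to Wnt2 was 0.695, 0.801 and 2.93 in the 3 libraries.

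A middle tier of ligands had means between 0.464 and 0.941 TPM. Wnt6 had 0.890, 0.856 and 1.08 TPM and Wnt11, which acts in cell movement through the planar polarity branch, 0.848, 0.639 and 1.28 TPM. Wnt2b, a stromal ligand of the intestine, had 0.613, 0.723 and 1.39 TPM. Wnt5b, the close relative of Wnt5a, had 0.624, 0.399 and 1.49 TPM. All 4 were highest in replicate 3 and passed a TPM of 1 there alone. Wnt8b had 0.204, 0.493 and 0.694 TPM and was likewise highest in replicate 3. The ranges over libraries overlapped between all 18 neighbours in the order of ligand levels, so no ligand stood clear of the next. Wnt4, Wnt5a, Wnt5b and Wnt11, often grouped as ligands that can act without beta-catenin, made up 0.387, 0.340 and 0.574 of the summed ligand level as a fraction.

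The other 10 ligands averaged at most 0.208 TPM. They included Wnt3, the Paneth cell ligand of the small intestine, with 0.0212, 0.191 and 0.013 TPM, high in replicate 2 alone. Wnt10b had 0.0626, 0.0943 and 0.468 TPM, Wnt9b 0.114, 0.129 and 0.114 TPM, and Wnt16 0.080, 0.139 and 0.0369 TPM. Wnt7a, Wnt7b, Wnt1 and Wnt10a had at least 1 library at 0 and no library above 0.0395 TPM. Wnt3a and Wnt8a were listed at 0 in all 3 libraries. Although TPM keeps no depth, numbers of fragments could be estimated for genes with 1 annotated transcript, from the spacing of low values. On that estimate Wnt1 rested on about 2 fragments in replicate 3 and Wnt10a on about 3 in replicate 2. Wnt4 rested on about 94, 71 and 211 fragments in replicates 1, 2 and 3, Wnt2b on about 62, 64 and 114, and Wnt8b on about 21, 45 and 58.

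Several WNT genes lie next to each other in the mouse genome, and the neighbours in 3 of 4 such pairs had unlike levels. Wnt9a averaged 1.26 ± 0.385 TPM, while Wnt3a, 16.1 kb away on chromosome 11, was listed at 0. Wnt6 averaged 0.941 ± 0.119 TPM and Wnt10a, 6.70 kb away on chromosome 1, had 0, 0.0395 and 0 TPM. Wnt10b averaged 0.208 ± 0.226 TPM and Wnt1, 11.7 kb away on chromosome 15, had 0, 0 and 0.035 TPM. Both of these stayed below 1 TPM in all libraries, so their difference lay near the floor. In the fourth pair, whose annotated spans overlap on chromosome 11, Wnt9b averaged 0.119 ± 0.00847 TPM and Wnt3 0.0751 ± 0.101 TPM. Within each of the first 3 pairs, the first gene was higher in 3 of 3 libraries.

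Both genes of ligand secretion were expressed. Wls (Entrez 68151, chromosome 3, 159839650 to 159938666), which carries lipid-bearing WNT proteins to the cell surface, was the most abundant gene of the set. It had 62.0, 78.8 and 76.6 TPM in replicates 1, 2 and 3 and lay at percentile 85.6 of the genes with a mean of 1 TPM or more. Porcn, the acyltransferase, had 5.12, 5.66 and 4.43 TPM. Wls exceeded Porcn 12.1-fold, 13.9-fold and 17.3-fold in the 3 libraries, and their ranges did not overlap.

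Frizzled receptors were led by Fzd5 (Entrez 14367, chromosome 1, 64730558 to 64737750), a receptor of intestinal epithelium that signals through beta-catenin. It had 12.4, 24.7 and 22.2 TPM in replicates 1, 2 and 3, lowest in replicate 1. Fzd6 (Entrez 14368, chromosome 15, 39006149 to 39038192), a receptor with roles in planar polarity, had 12.3, 14.97 and 10.01 TPM. Fzd5 was above Fzd6 in 3 of 3 libraries, but in replicate 1 the values were nearly equal and the ranges overlapped. Fzd1 had 6.14, 10.2 and 13.0 TPM and Fzd7 6.46, 6.85 and 7.73 TPM. The highest library was 1.20-fold above the lowest for Fzd7. Fzd8 had 4.92, 6.38 and 5.91 TPM, Fzd2 had 1.67, 2.18 and 3.14 TPM, and Fzd9 had 1.11, 2.002 and 1.67 TPM.

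Fzd4, the receptor that answers Norrin in blood vessels of the retina, had 2.28, 4.04 and 5.86 TPM. It was lowest in replicate 1 and highest in replicate 3. Norrin itself (Ndp) was at 0, 0.040 and 0 TPM, while Tspan12, the tetraspanin that aids the Norrin receptor, had 39.9, 40.6 and 34.8 TPM. Fzd3 (0.800 ± 0.0775 TPM) and Fzd10 (0.567 ± 0.268 TPM) stayed below 1 in all libraries. Ranges overlapped between 7 of 9 neighbours in the order of Frizzled levels, and were clear of each other between Fzd7 and Fzd8 and between Fzd9 and Fzd3. Fzd5 made up 25.6%, 34.01% and 31.2% of Frizzled TPM and Fzd6 25.5%, 20.6% and 14.1%, while Fzd1 made up 12.7%, 14.1% and 18.2%. Part of the Fzd5 exons (17.8%) overlaps the gene model Gm38058 on the other strand, and the counting is not stated to use strand.

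The co-receptor genes were both among the highest of the set. Lrp5 (Entrez 16973, chromosome 19, 3584825 to 3686585) had 24.4, 36.4 and 33.1 TPM, and Lrp6 (Entrez 16974, chromosome 6, 134446476 to 134566913) had 13.6, 21.9 and 21.4 TPM. Lrp5 was higher in 3 of 3 libraries, with ranges that did not overlap and ratios of 1.79, 1.66 and 1.54. The co-receptor sum was 0.787, 0.803 and 0.765 of the Frizzled sum, so both sums differed between libraries in nearly the same proportion.

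Most receptor genes were lowest in replicate 1, and so were most genes of the table. Of the 35 genes of the set above 0 in all libraries, 20 were lowest in replicate 1, 9 in replicate 2 and 6 in replicate 3, against 59.9%, 17.9% and 22.2% of all such genes. Of the 10 Frizzled and co-receptor genes with a mean of 1 TPM or more, 9 were lowest in replicate 1, against 62.6% of the 13606 genes with such a mean. Among genes whose longest transcript exceeds 4000 bases, 79.9% were lowest there. For expressed genes with transcripts over 6000 bases, replicate 1 minus the mean of the libraries had a median of -0.37 on the log2 scale. For transcripts of 1000 to 2000 bases the median was -0.02. Lrp6 and Lrp5, with longest transcripts of 9368 and 8893 bases, had -0.45 and -0.34 on this scale. Fzd4 (6720 bases) had -0.73, Fzd5 (6915 bases) -0.61 and Fzd1 (4197 bases) -0.61. Length and level did not run together throughout: the shorter Fzd9 (2293 bases) and Fzd2 (3663 bases) had -0.48 and -0.43. The longer Fzd8 (5974 bases), Fzd7 (4532 bases) and Fzd6 (4325 bases) had -0.21, -0.11 and 0.01, and Fzd3 (12734 bases), which stayed below 1 TPM, had -0.08. The part of this length pattern in the receptor values was not tested beyond 1 comparison: with each library centred within 5 bins of transcript length, 6 of the 10 genes were lowest in replicate 1, against 38.6% of all genes. On that scale the Frizzled sum was 62.8 ± 3.83 TPM, against 64.1 ± 13.6 TPM as deposited. Without replicate 1, the deposited sum was 71.9 ± 0.951 TPM (n = 2).

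**Figure D3:**
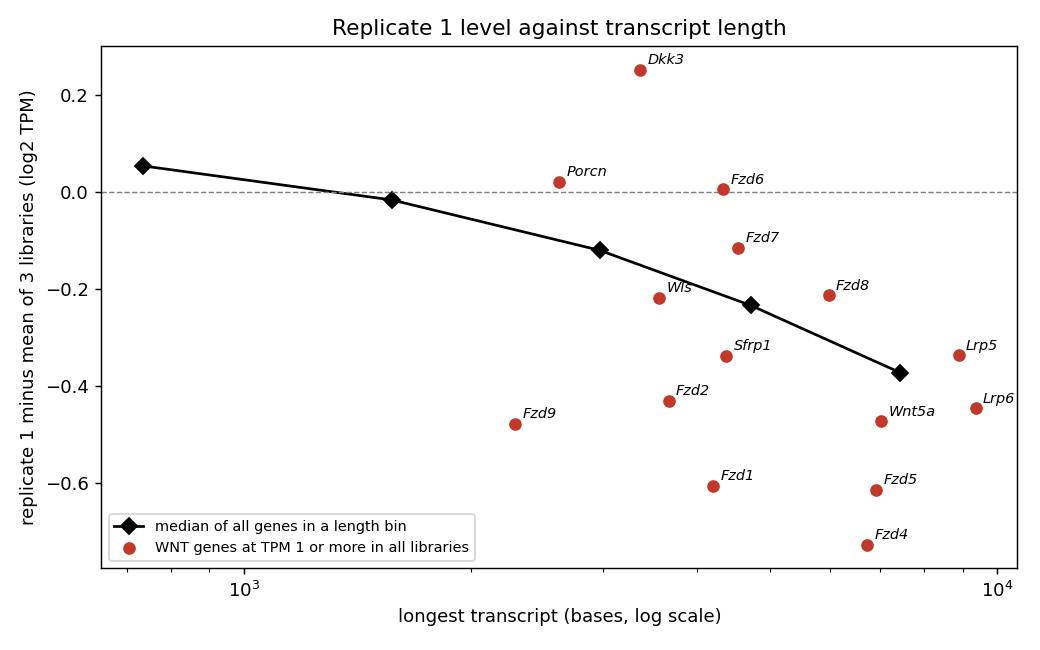
Level in replicate 1 minus the mean of the 3 libraries (y axis, log2 TPM) against the longest transcript (x axis, bases, log scale). Red points are the 15 WNT genes expressed in all libraries, and black diamonds are medians of all expressed genes in 5 length bins. The bin median is -0.02 at 1000 to 2000 bases and -0.37 above 6000 bases, and Fzd4, Fzd5 and Fzd1 lie lowest.

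Among the secreted inhibitors, Dkk3 and Sfrp1 were expressed. Dkk3 (Entrez 50781, chromosome 7, 112116019 to 112159482), a divergent member of the Dickkopf family that is not a clear inhibitor of the co-receptors, had 8.48, 4.77 and 8.93 TPM. It was lowest in replicate 2 and made up 57.1%, 46.6% and 41.0% of inhibitor TPM. Sfrp1 (Entrez 20377, chromosome 8, 23411383 to 23449632), which binds WNT ligands through a Frizzled-like domain, had 2.89, 2.54 and 6.61 TPM. Its replicate 3 value was 2.60-fold its lowest. Sfrp5 had 0.941, 1.25 and 1.63 TPM and Sfrp2 had 0.957, 0.270 and 2.11 TPM, the widest spread of the inhibitors present in all libraries. Sfrp4 (0.649 ± 0.147 TPM), Dkk2 (0.447 ± 0.153 TPM) and Dkk1 (0.237 ± 0.0414 TPM) stayed below 1 throughout. So did Wif1, with 0.407, 0.214 and 0.876 TPM. Dkk4 was at 0, 0.0311 and 0 TPM. Dkk1 rested on an estimated 15, 14 and 17 fragments and Wif1 on 28, 13 and 48. Sfrp2 shares 16.1% of its exon bases with the antisense gene Gm26771.

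The summed inhibitor level exceeded the summed ligand level in 3 of 3 libraries. The ratio was 1.75, 1.26 and 1.64 in replicates 1, 2 and 3, or 0.62 ± 0.25 on the log2 scale. This direction rested on Dkk3: without it, the log2 ratio was -0.34 ± 0.27, so the other 8 inhibitors together lay below the ligands.

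Most ligand and inhibitor genes above 0 in some library were highest in replicate 3, where fibroblast, muscle, macrophage and leukocyte markers were also highest. Of the 40 genes of the set above 0 in some library, 3 were highest in replicate 1, 13 in replicate 2 and 24 in replicate 3, against 18.1%, 39.3% and 42.6% of all such genes. Of the 9 inhibitor genes, 8 were highest in replicate 3, as were 10 of the 17 ligand genes above 0 in some library. These 10 ligands include Wnt1 and Wnt7b, which were above 0 in replicate 3 alone. Of the 4 ligands with a mean of 1 TPM or more, 2 were highest there. The exception among inhibitors was Dkk4, which was above 0 in replicate 2 alone. Of the 20 genes of the set with a mean of 1 TPM or more, 2 were highest in replicate 1, 8 in replicate 2 and 10 in replicate 3, against 17%, 41.7% and 41.3% of all genes with such a mean. In the same genes, 12 were lowest in replicate 1, 4 in replicate 2 and 4 in replicate 3, against 62.6%, 14.9% and 22.4%. For these 20 genes, 6 had a highest library at least 2-fold above the lowest, against 12% of all genes with such a mean: Wnt4, Wnt5a, Fzd1, Fzd4, Sfrp1 and Sfrp2. All 6 were highest in replicate 3. For 2 of them, Wnt4 and Sfrp2, the mean reached 1 TPM only through that library (0.677 and 0.613 TPM without it), so the filter favoured genes high there. The share highest in replicate 3 among all genes varying 2-fold was not computed, so this count has no comparison. Between replicates 1 and 2 alone, 1 of the same 20 genes differed 2-fold, Sfrp2 by 3.54-fold. The share of all genes that did so was not computed either.

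Relative to its own mean, replicate 3 was at 1.79 for Wnt4, 1.78 for Wnt5b, 1.69 for Wnt5a, 1.90 for Sfrp2, 1.76 for Wif1 and 1.65 for Sfrp1. All 10 fibroblast markers, all 9 smooth muscle and pericyte markers and all 8 macrophage markers were also highest in replicate 3. Pdgfra, which marks fibroblasts and crypt-associated telocytes, had 1.48, 1.31 and 5.52 TPM, and the telocyte factor gene Foxl1 had 0.396, 0.0418 and 1.16 TPM. Wnt2 and Wnt9a had replicate 3 at 0.745 and 0.677 of their means, and 10 of 11 lymphatic markers were lowest in that library. Fzd6 and Porcn were lowest there too, as were 22.4% of all genes with a mean of 1 TPM or more. The part of these other cells in the ligand and inhibitor levels was not tested. Without replicate 3, the ligand sum was 8.31 ± 0.233 TPM and the inhibitor sum 12.6 ± 3.26 TPM (n = 2), against 9.97 ± 2.87 and 15.6 ± 5.82 TPM over 3 libraries. Without it, Wnt9a averaged 1.46 TPM, Wnt2 1.47, Wnt5a 1.09, Wnt4 0.677 and Sfrp1 2.71 TPM.

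**Figure D4:**
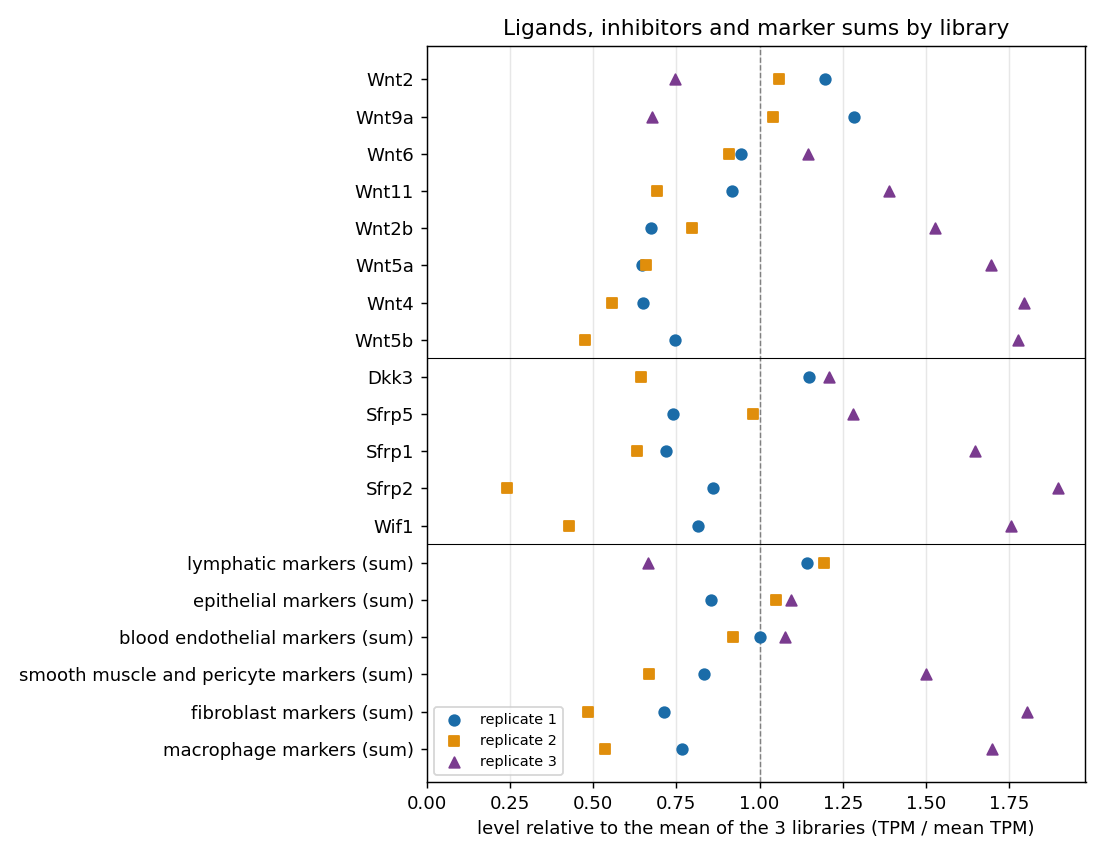
Level of each library relative to the mean of the 3 (x axis, TPM over mean TPM) for 8 ligands, 5 inhibitors and the summed markers of 6 cell types (y axis). Replicate 3 (triangles) is the lowest library for Wnt2, Wnt9a and the lymphatic sum, and the highest for every other entry plotted. For the blood endothelial sum this rested on including Car4 (628 TPM and lowest in replicate 3 without it). Of the 10 blood endothelial markers, 6 were highest in replicate 3.

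Other genes that handle WNT signals outside the cell were mixed. Of 14 further receptors and receptor partners, 11 were expressed (78.6%, against 53.4% of all genes). Ryk, a WNT receptor related to tyrosine kinases, had 34.6, 36.9 and 38.7 TPM, and the glypican Gpc4 had 16.3, 23.8 and 24.7 TPM. Kremen2 (11.01 ± 2.002 TPM) and Kremen1 (10.2 ± 1.59 TPM), partners of DKK proteins, exceeded Dkk1 in every library. Ror1 and Ror2, receptors for WNT5A, averaged 2.47 ± 0.627 and 3.45 ± 0.621 TPM. Of 9 further extracellular modulators, 3 were expressed (Igfbp4, Dkkl1 and Cthrc1), or 33.3%. Igfbp4, which can restrain WNT signalling, was at 109 ± 9.15 TPM. Sostdc1 (1.29 ± 0.735 TPM) was the next highest after Dkkl1 and Cthrc1 (2.32 ± 0.446 and 2.31 ± 0.512 TPM), Trabd2b averaged 0.575 ± 0.149 TPM, and Sost was listed at 0.

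Inside the cell the pathway was broadly present, with 17 of 19 signalling genes expressed (89.5%, against 53.4% of all genes). Ctnnb1, which encodes beta-catenin, averaged 440 ± 14.8 TPM, Csnk1a1 178 ± 32.6 TPM and Gsk3a 58.6 ± 7.84 TPM. Dvl1, which relays the Frizzled signal, averaged 36.3 ± 5.63 TPM and Tnks2 33.3 ± 6.75 TPM. Lef1 and Pygo1 were the exceptions, at 0.401 ± 0.210 and 0.144 ± 0.175 TPM. Of 15 genes known as targets of the pathway, 13 were expressed (86.7%). Axin2, a feedback inhibitor used as a general readout of beta-catenin signalling, was nearly equal in the libraries at 20.0, 19.6 and 20.3 TPM. Ccnd1 averaged 71.0 ± 4.02 TPM, Sox9 37.9 ± 6.10, Cd44 26.04 ± 3.97, Myc 23.8 ± 2.02, Ephb3 21.7 ± 0.700 and Rnf43 18.0 ± 3.97 TPM. The crypt genes Ascl2 (12.4 ± 1.13 TPM), Ephb2 (11.3 ± 2.64 TPM) and Lgr5 (3.01 ± 0.301 TPM) were expressed, as were Znrf3 (3.62 ± 1.73 TPM), Nkd1 (2.10 ± 0.538 TPM) and Tnfrsf19 (1.99 ± 0.894 TPM). Sp5 (0.954 ± 0.239 TPM) and Nkd2 (0.322 ± 0.300 TPM) were not. Epithelium of the crypt expresses many of these targets, and the epithelial markers were at the levels given above.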

How the data were processed

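RNA of 3 libraries of sorted lymphatic endothelial cells was analysed from 1 deposited table each. The values are TPM as the authors deposited them, per the file headers, with sums of 999939, 999907 and 999896. The submitters' processing notes name mm10, Cell Ranger 6.0.1 and HTSeq. How TPM was computed, the annotation and the use of strand are not given in the sources used here. TPM keeps no depth. From steps in low TPM values of single-transcript genes (6038 genes over 1000 bases, 190 bases subtracted from the length), a TPM of 1 on 1000 bases stood for about 32.4, 28.4 and 26.2 fragments in replicates 1, 2 and 3. Of low values, 66.0% to 68.9% lay within 0.15 of a whole number, where values with no steps give 30%. The length was that of the matching GENCODE M21 transcript.

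The 42 genes matched RefSeq by Entrez ID. The members and the lists were chosen with earlier results of these data known. All 42 are named. Of other lists, the text names the 5 genes of highest mean TPM, every target gene, the 3 highest markers per cell type (1 marker list is not reported here), and a few more chosen after their values were seen (Ndp, Ror1, Ror2, Pdgfra, Foxl1, Lef1, Pygo1, Sost and the genes that overlap members). Sums, medians, shares and counts were computed per library, with no test, since the series has 1 group. Alternatives were other TPM thresholds and pseudocounts, median-of-ratios scaling, rescaling without ribosomal protein genes, leaving out each replicate and, chosen after seeing the data, centring within bins of transcript length and leaving out each replicate for the 2-fold count with the mean taken over all 3 libraries. Python 3.11.15, numpy 2.4.6, pandas 2.3.3 and matplotlib 3.10.9 were used.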

Additional observations from a re-analysis of the deposited data

How the results depend on the processing

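At a threshold of 0.5 TPM in all 3 libraries, 23 of the 42 genes and 7 ligands were expressed. At 5 TPM, 7 genes, 4 Frizzled genes, 0 ligands and 0 inhibitors were. By a mean of 1 TPM or more, 4 ligands and 4 inhibitors were. Without ribosomal protein genes, 4 ligands passed and the Frizzled sum was 79.8 TPM. Leaving out 1 replicate gave 15 to 17 expressed genes, 1 to 3 ligands (3 without replicate 3, which leaves Wnt2, Wnt5a and Wnt9a), 8 Frizzled genes, and 2 to 3 inhibitors. It also gave ligand sums of 8.31 to 10.9 TPM, Frizzled sums of 59.8 to 71.9 TPM, inhibitor sums of 12.6 to 18.3 TPM, log2 ratios of inhibitors to ligands of 0.52 to 0.76, and 0 to 7 genes varying 2-fold (0 without replicate 3, where the recomputed mean of Sfrp2 fell under the filter). With the mean taken over all 3 libraries, chosen after seeing the data, leaving out 1 replicate gave 1 to 6, with 1 without replicate 3. The log2 ratio without Dkk3 was -0.34, as the sum then lacks its largest term. With a pseudocount of 1 TPM, 3 genes varied 2-fold, as did 10 at a mean of 0.5 TPM or more and 1 at 5 TPM or more. Median-of-ratios scaling divides replicates 1, 2 and 3 by factors with log2 values of -0.15, 0.08 and 0.09, which moves replicate 1 up and the others down. Under it Fzd1 no longer varied 2-fold while Dkk3 and Wnt9a did, and 8 of 10 receptor and co-receptor genes were lowest in replicate 1, against 37.6% of all genes. Under length centring, Fzd1 and Fzd4 no longer varied 2-fold and Dkk3 and Wnt9a did. On that scale 14 of the 42 genes were expressed. Wnt5a, at 0.968 TPM in replicate 2, was not among them, and no ligand was. The causes of the other differences were not tested. No paired analysis was possible because there is 1 group. Depth limits the lowest ligands most: Wnt1 and Wnt10a rest on an estimated 2 and 3 fragments in all.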
